A study of Apis mellifera with 2 samples.

Results

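The genes described here are 116 abundant honey bee genes with a small ratio, after TMM scaling of the libraries, between hemocytes of newly emerged adults and of last-instar larvae. They were chosen by their values: a locus number in place of a symbol, exactly 1 coding sequence, at least 100 CPM in both libraries (counts scaled to a TMM-adjusted library total of 1000000), and a log2 ratio of adult over larval CPM between -0.25 and 0.25. They are 116 of 9935 genes in the files, of 5047 locus-number genes with 1 coding sequence, and of 559 such genes that reach the CPM floor in both libraries. Because the ratio itself chose these genes, their ratios are a description, no test was made on them, and they support nothing about stability.

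Hemocytes are the blood cells of insects, which engulf and encapsulate intruders and release the enzymes of melanization. The adult library came from Apis mellifera carnica bees under 1 day old, hatched from brood frames held at 34 °C and gathered every 24 h, and the larval library from worker larvae 8 days old in the fifth instar. Each of the 2 stages has 1 library of polyadenylated RNA, from the cells of 320 µL of hemolymph, and the number of insects pooled was not given in the sources used here. Every value therefore compares 2 libraries, with no replicate check and no p-value, and in such bulk samples fewer cells of a type and less RNA per cell cannot be told apart.

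Genes that hold a steady share of the RNA in a cell type often serve functions that all cells need, such as protein folding, respiration and translation, but a steady share is not proof of such a role. A share also depends on what else is in the library: when some transcripts take more of the reads, all others take less. Ratios between libraries are read after a scaling step, here TMM, which assumes that most genes do not differ. The gene table used here gives the 116 genes no product name, so none is assigned a function.

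The estimated counts summed to 16880784 (adult) and 17657463 (larva), and TMM scaling multiplied these totals by 1.13 and 0.886 before CPM were taken. PPO, the prophenoloxidase of hemocytes, had 14041 CPM in adult and 28019 CPM in larval cells. The 7 fat body markers summed to 190 CPM in the adult and 6888 CPM in larval cells, although 1 of them, Vg, ran the other way with 119.7 and 0.320 CPM. The 3 neuronal markers summed to 1135 and 256 CPM, mostly from Syt1 (1094 and 244 CPM), while NLG-3 stood at 11.5 and 9.78 CPM. The 2 oenocyte markers summed to 89.6 and 9.72 CPM but ran opposite ways. Cyp4g11 stood at 84.6 and 1.73 CPM, and FAR1 at 4.99 and 7.99 CPM. The 3 muscle markers summed to 24.2 and 38.7 CPM, and the 4 silk gland markers to 10.1 and 53.7 CPM. No marker was at 0 in either library. The part of other cell types in the values of the 116 genes was not tested.

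Most of the counts of the 116 genes came from 2 of them. LOC408551 stood at 20527 CPM in the adult library (exact 95% Poisson interval 20462 to 20591) and at 23780 CPM in the larval library (23704 to 23857), a log2 ratio of -0.21. By CPM it ranked 2 among all genes of the adult library and 3 among those of the larval one. LOC408329 stood at 9129 and 9403 CPM, a log2 ratio of -0.04, and ranked 8 and 11. Both genes were thus among the most heavily sequenced in each library, with estimated counts of 391085 and 372038 for LOC408551 and 173924 and 147111 for LOC408329.

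Together the 116 genes took up 6.02% of the adult library (6.004 to 6.026, exact binomial) and 5.08% of the larval library (5.07 to 5.09). These intervals, like all here, cover counting error only. LOC408551 and LOC408329 accounted for 55.6% of the group's adult counts and 57.9% of its larval counts. The other 114 genes held 2.67% and 2.14% of the libraries.

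LOC724950 followed with 1297 CPM (adult) and 1384 CPM (larva), a log2 ratio of -0.09. LOC100576690 stood at 1061.3 and 1059.9 CPM, the ratio nearest to 1 in the group (log2 0.002, exact counting interval -0.03 to 0.03). LOC411832 stood at 1017 and 945 CPM (log2 ratio 0.11). Below these 5, abundance dropped to LOC409417, at 545 and 593 CPM, and LOC107964400, at 530 and 490 CPM. LOC724603 (431 and 487 CPM), LOC410347 (428 and 468 CPM) and LOC408836 (410 and 472 CPM) closed the first 10.

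Most of the rest of the group lay between the floor and a mean of 200 CPM. Of the 116 genes, 4 had a mean of 1000 CPM or more, 3 lay from 500 to under 1000, 24 from 200 to under 500, and 85 under 200 CPM. The median of the mean CPM was 149, against 245 over all 559 abundant genes with 1 coding sequence, 215 over the 96 with a log2 ratio above 0.25 and 278 over the 347 with a log2 ratio below -0.25. The rule sets part of this contrast, since a gene at the floor in both libraries can only lie within the band. In rank by CPM the 116 genes reached from 2 to 1826 of 9935 in the adult library (median 1133) and from 3 to 1997 in the larval library (median 1205.5).

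**Figure D1:**
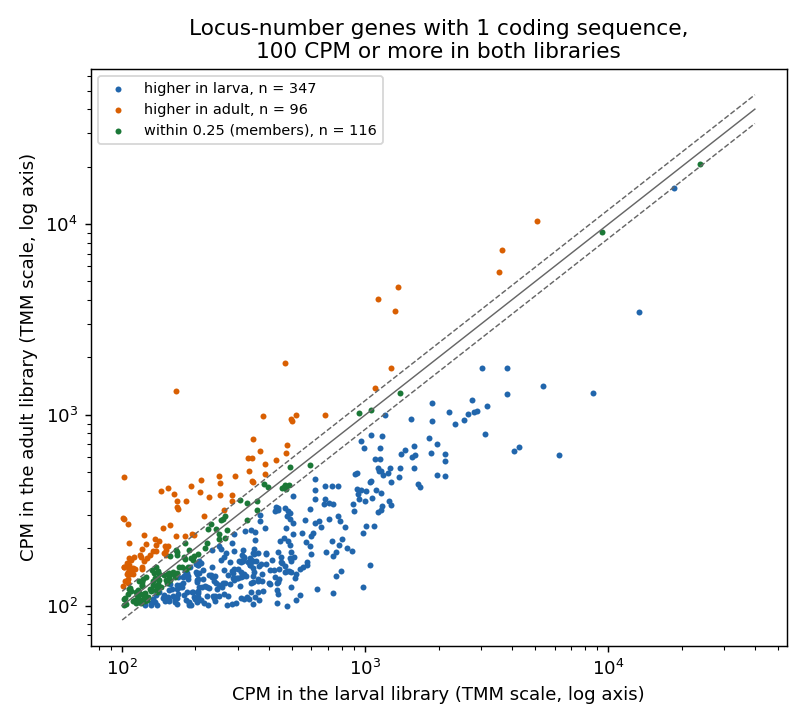
CPM in the adult library (vertical, log axis) against CPM in the larval library (horizontal, log axis) for the 559 locus-number genes with 1 coding sequence and 100 CPM or more in both. Points are genes, the solid line marks equal CPM and the dashed lines a log2 ratio of 0.25 either way; 116 genes lie between the dashed lines, 96 above and 347 below, and LOC408551 and LOC408329 stand far along the band.

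Of the 559 abundant genes, 20.8% met the width of 0.25, a share that the rule itself sets. By mean CPM, 85 of 227 genes (37.4%) met it from 100 to under 200 CPM, 24 of 211 (11.4%) from 200 to under 500, 3 of 70 (4.29%) from 500 to under 1000 and 4 of 51 (7.84%) at 1000 or more. In the first of these bins the floor in both libraries caps the ratio a gene can have. At means just above 100 CPM the cap lies inside the band, so such genes meet the width by construction. Towards 200 CPM the cap moves well outside the band. The share in this bin is therefore set in part by the floor. In the bins from 200 CPM up, genes with a log2 ratio below -0.25 made up 73.5%, 80.0% and 74.5%.

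**Figure D2:**
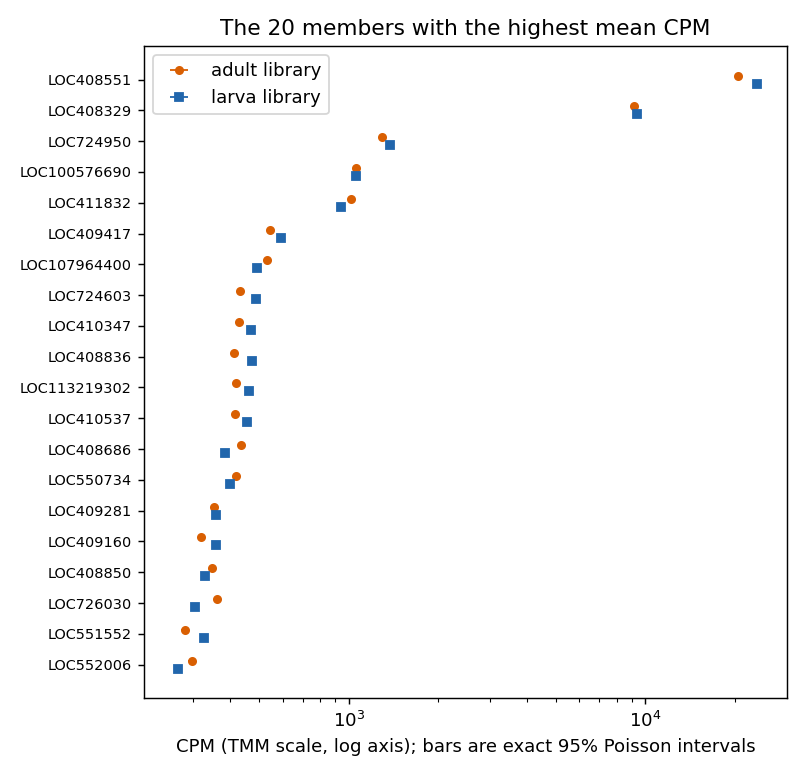
CPM on a log axis of the 20 genes of the group with the highest mean CPM, in the adult library (orange circles) and the larval library (blue squares), with exact 95% Poisson intervals that are mostly hidden by the symbols. LOC408551 and LOC408329 lie at 9129 CPM or above, LOC724950, LOC100576690 and LOC411832 between 945 and 1384, and the others below these.

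On the TMM scale, the counting error of the ratios was smaller than the width of the band. The lowest estimated count of any of the 116 genes in either library was 1585, and the counting interval of a log2 ratio reached a median of 0.08 to each side (0.006 to 0.10). For 83 genes the whole interval lay inside the band, and for 33 it crossed an edge. A further 23 abundant genes outside the band had an interval that reached into it. At the median the counting interval was narrower than the band, while the error between animals or preparations is not known.

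Within the band, 43 genes had a log2 ratio above 0 and 73 below 0, with a median of -0.07. The counting interval left out 0 for 83 of the 116 genes, above it for 30 and below it for 53. Among all 559 abundant genes it did so for 94.1%, for 22.5% above and 71.6% below 0. The rule used this same contrast, so nothing is read from the smaller share in the group. Next to LOC100576690, the ratios nearest to 1 were those of LOC727261, at 133.9 and 133.7 CPM (log2 0.003), and LOC413869, at 116.5 and 116.8 CPM (log2 -0.005). A log2 ratio of 0.1 or less in size was found for 41 genes.

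At the upper edge, LOC726030 (359 and 304 CPM, log2 0.24), LOC408722 (213 and 182 CPM, 0.23) and LOC727263 (195 and 167 CPM, 0.22) lay just inside. LOC411730 (0.26), LOC725528 (0.27) and LOC409365 (0.29) lay just outside. At the lower edge, LOC551541 (118 and 139 CPM, log2 -0.25), LOC725661 (107 and 127 CPM, -0.24) and LOC413578 (155 and 182 CPM, -0.23) were inside. LOC725563 (-0.25), LOC408552 (-0.26) and LOC410530 (-0.26) were outside. The counting intervals of all 6 genes just outside reached into the band, that of LOC408552 least (-0.26 to -0.249), since its counts are the highest of the 6.

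At the floor, LOC409334 (100.4 and 101.3 CPM), LOC726642 (108 and 102 CPM) and LOC408288 (110.1 and 102 CPM) were the last inside. LOC410413 (99.6 CPM in the larval library), LOC412191 (99.6 CPM in the larval library) and LOC411196 (99.5 CPM in the adult library) were the first outside. The floor thus separates genes that differ by a few CPM.

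The small ratios hold relative to TMM scaling. DESeq2 size factors moved every log2 ratio by -0.02, and 112 of the 116 genes still met all parts of the rule. Plain library totals moved every ratio by 0.35, so that all 116 genes were above 0 (0.10 to 0.59) and 48 met the rule. The authors' TPM, a level per length scaled to a total of 1000000, put all 116 above 0 as well (0.16 to 0.79), and 3 met the rule. The median over all 8798 genes with at least 10 counts was 0.02 with TMM, 0.003 with DESeq2 factors, 0.37 with plain totals and, over those with TPM above 0 in both libraries, 0.55 with TPM.

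A different reference level gives a different view of the same genes. The 559 abundant genes with 1 coding sequence had a median log2 ratio of -0.55 on the TMM scale, so the 116 genes lay 0.31 to 0.79 above the median of their own abundance class. None of the 116 lay within 0.25 of that median. The order of the genes along the CPM ratio is the same under TMM, DESeq2 factors, plain totals and this centring, since these shift all ratios alike.

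**Figure D3:**
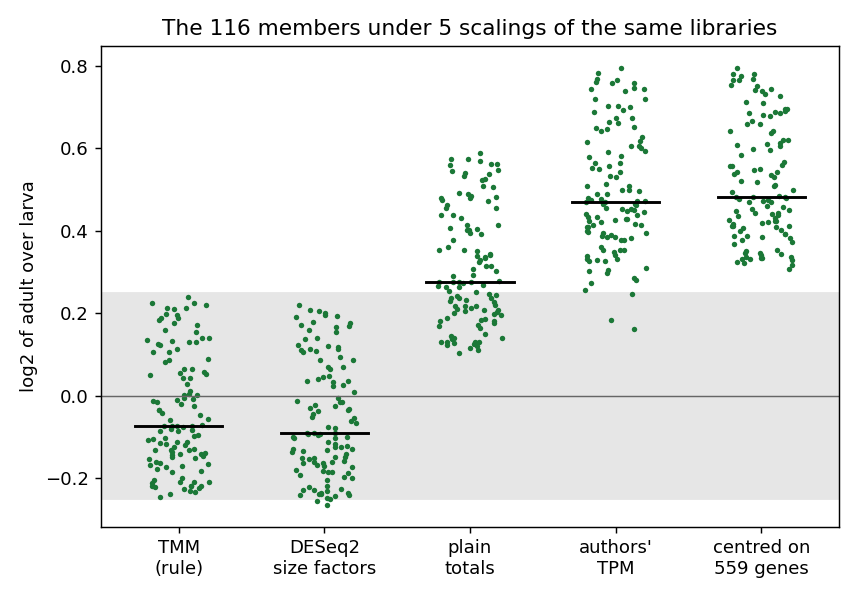
Log2 of adult over larva (vertical) for the 116 genes under 5 scalings of the same 2 libraries, with each point a gene, sideways scatter for visibility, black bars at the median and the band of 0.25 shaded. Medians were -0.07 with TMM, -0.09 with DESeq2 size factors, 0.28 with plain totals, 0.47 with the authors' TPM and 0.48 after centring on the 559 abundant genes.

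Per coding length, the order of the group changed. In TPM the 2 genes of highest CPM stood beside short ones. LOC408551 (5502 bases) reached 2993 TPM in the adult library and 2344 in the larval, and LOC408329 (2136 bases) 3726 and 2610 TPM. LOC113219302, with 342 coding bases, reached 3197 and 2695 TPM from 419 and 463 CPM. LOC100576690 (507 bases) reached 3333 and 2403 TPM, and LOC411832 (519 bases) 3046 and 2039 TPM.

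Short genes filled most of the next places by TPM. LOC552551 (324 bases) reached 1637 TPM (adult) and 1370 TPM (larva), LOC551381 (285 bases) at 1376 and 1212, and LOC551541 (357 bases) at 810 and 724. LOC724274 (585 bases) stood at 680 and 440 TPM, and LOC410347 (759 bases) at 662 and 505 TPM. A mean of 1000 TPM or more was found for 7 of the 116 genes, and 5 of the first 10 by TPM were also among the first 10 by CPM.

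The longest coding sequences had low levels per length. LOC413947 (9444 bases) stood at 124 and 139.6 CPM, which is 10.3 and 7.84 TPM, LOC409034 (8637 bases) at 12.9 and 7.71 TPM, and LOC724959 (6282 bases) at 13.6 and 10.2 TPM. All 3 pass the floor, which is set in CPM and takes no account of length. By TPM, LOC413947 ranked 6274 among all genes of the adult library and 5861 among those of the larval one. LOC409034 ranked 5935 and 5880, and LOC724959 ranked 5857 and 5473. Mean TPM over the group ran from 9.09 to 3168.

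The 3 genes that met the rule under TPM were short: LOC551541 (log2 TPM ratio 0.16), LOC551381 (0.18) and LOC113219302 (0.25). The authors' effective lengths were below the coding length by 265 bases (adult) and 282 bases (larva) for coding sequences over 5000 bases, so the 2 libraries were given different effective lengths. For the 22 genes of 3000 bases or more the TPM ratio lay a median of 0.56 log2 above the CPM ratio. For the 12 genes under 500 bases it lay 0.38 to 0.47 above. The comparison between libraries by TPM thus moved with coding length, and that by CPM did not use it.

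**Figure D4:**
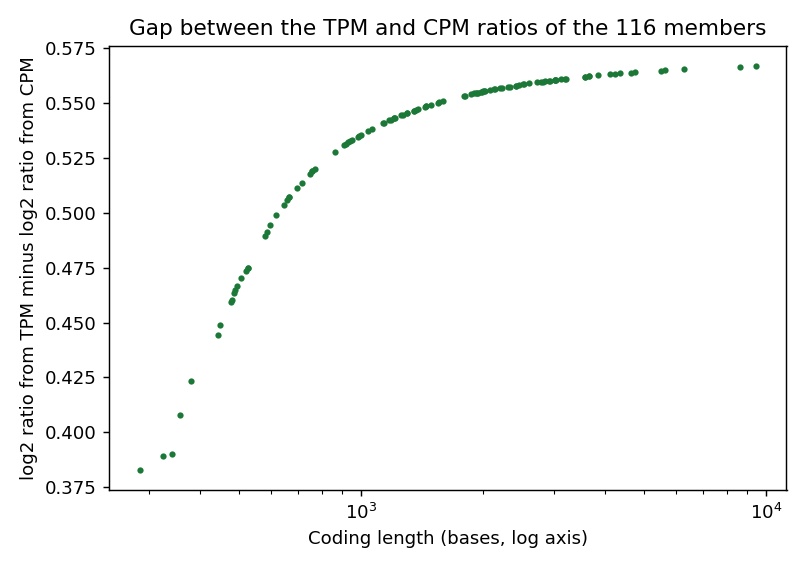
Gap between the log2 ratio of adult over larva from the authors' TPM and from CPM (vertical) against coding length in bases (horizontal, log axis), with each point 1 of the 116 genes. The gap rises from 0.38 at the shortest genes to 0.57 at the longest.

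Coding length was not named in the rule, but the floor in CPM, which takes no account of length, lets longer genes pass at a lower TPM. The 116 genes had a median of 1450.5 coding bases (quartiles 768 and 2551), the 96 abundant genes above the band 1443 (920 and 2666), and the 347 below it 1116 (688.5 and 1629). All 559 abundant genes had a median of 1239. The 4324 locus-number genes with 1 coding sequence and at least 10 counts, to which the floor was not applied, had a median of 1161. By length, 26 of 149 abundant genes under 750 bases fell in the band (17.4%), 34 of 204 from 750 to under 1500 (16.7%), 34 of 136 from 1500 to under 3000 (25%) and 22 of 70 at 3000 or more (31.4%). Along the same bins the share below the band was 67.1%, 70.1%, 55.1% and 41.4%, and the share above it 15.4%, 13.2%, 19.9% and 27.1%.

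**Figure D5:**
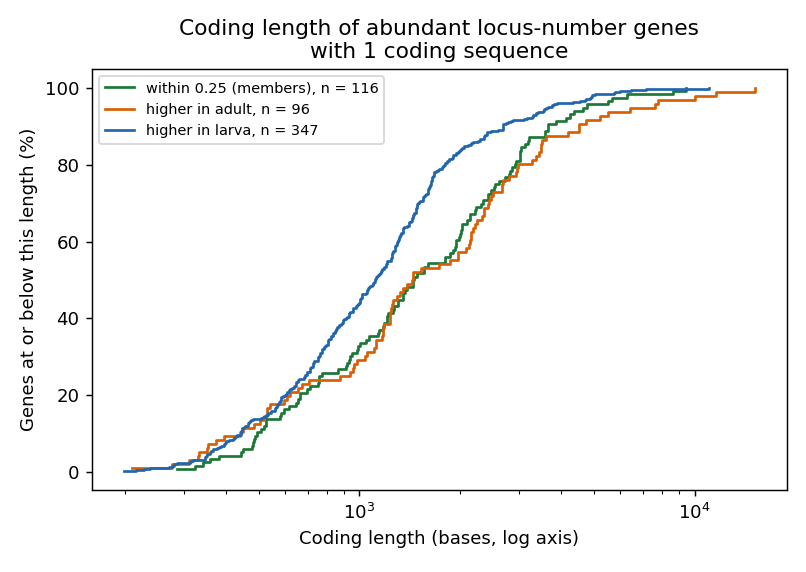
Share of genes (vertical, %) at or below a coding length in bases (horizontal, log axis) for the 116 genes within the band (green), the 96 above it (orange) and the 347 below it (blue). The green and orange lines run close together, with medians of 1450.5 and 1443 bases, and the blue line lies to the left with a median of 1116.

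A gene with 1 coding sequence need not have 1 transcript. The gene table lists 1 transcript for 111 of the 116 genes and more for 5, each with at least 1 non-coding transcript among them. These are LOC724950, LOC551997, LOC100578694 and LOC411857, with 2 transcripts each, and LOC100576690, with 5, of which 4 are non-coding. Over all 559 abundant genes, 546 (97.7%) had 1 transcript. Since only coding sequences were counted, non-coding transcripts have no value of their own here.

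Genes with more coding sequences met the floor and width at a somewhat higher rate. Of locus-number genes at the floor, 84 of 289 with 2 coding sequences (29.1%), 79 of 242 with 3 or 4 (32.6%) and 56 of 204 with 5 or more (27.5%) lay within the band, against 20.8% with 1. Their median log2 ratios were -0.20, -0.01 and 0.16, against -0.55 with 1 coding sequence. Their median longest coding sequences were also longer, at 1674, 1989 and 2847 bases against 1239.

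Estimated counts of a gene with 1 coding sequence are whole unless reads were divided with another sequence. The files give 6 digits, so no fraction can show for LOC408551 and LOC408329, which have over 100000 counts. Of the other 114 genes, 110 were printed as whole numbers in both libraries (96.5%), as were 534 of 551 abundant genes under 100000 counts (96.9%). The exceptions were LOC100576690 (20221.1 and 16581.5), LOC113219302 (7978.44 and 7236.64), LOC724274 (5429.34 and 4058.06) and LOC552585 (2199 and 1647.19), and their values are uncertain to the extent that reads were shared.

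For LOC724274 the gene next to it had counts that complement its own. The counts of the preceding gene in order, LOC410087, were 3504.66 (adult) and 918.939 (larva), and the sums of the pair were 8934 and 4977, whole to the digits printed. LOC410087 alone had a log2 ratio of 1.65 and LOC724274 0.14, while the pair together had 0.56. Whether the pair shares reads, and whether LOC724274 would stay within the band if they were divided otherwise, was not tested.

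The genes of the group lay on 16 chromosome sequences of the target identifiers, with 3 to 15 on each. No pair of them was adjacent in the order of coding genes. The same was not counted for other genes, so whether the group is scattered or clustered was not tested. Among the 232 flanking genes of the group, 44 (18.97%) reached 100 CPM in both libraries. For the other abundant genes with 1 coding sequence it was 142 of 878 (16.2%). Of the 227 flanking genes with at least 10 counts in all and counts in both libraries, 41 (18.1%) lay within a log2 ratio of 0.25. The share was 193 of 847 (22.8%) for the flanks of the other abundant genes and 19.6% over all 8723 such genes.

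The flanks of the 2 most abundant genes differed. LOC408551 (5502 bases) adjoins LOC408552 (5790 bases), with 15522 CPM (adult) and 18535 CPM (larva), a log2 ratio of -0.26, just outside the band. On its other side LOC410637 stood at 133 and 78.6 CPM. LOC408329 lay between LOC100576279, at 437 and 3090 CPM (log2 ratio -2.82), and LOC410282, at 220.2 and 146 CPM (0.60), so a gene far higher in the larval library stood next to it.

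A few genes with a symbol met the same limits. Of 28 symbol-bearing genes with 1 coding sequence at the floor, 6 (21.4%) lay within the band, near the 20.8% of the locus-number genes, and no kind of function is read from them. The chaperone Hsc70-4, a heat shock cognate of the cytosol, had 6620 CPM (adult) and 7679 CPM (larva), a log2 ratio of -0.21, and Hsc70-3, its relative in the endoplasmic reticulum, at 2508 and 2717 CPM (-0.12). CytC, the electron carrier cytochrome c, stood at 149.9 and 134 CPM (0.16), and Cox6b1, a nuclear-encoded subunit of cytochrome c oxidase, at 152 and 159 CPM (-0.07). MARCH6, a ubiquitin ligase of the endoplasmic reticulum membrane, stood at 301 and 319 CPM (-0.08), and Emc at 404 and 389 CPM (0.05). All 6 log2 ratios were above 0 under plain totals (0.14 to 0.51) and under TPM (0.32 to 0.55).

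With more than 1 coding sequence, 5 further symbol-bearing genes met the floor and width. They were Eif4g, a scaffold of translation initiation (544 and 487 CPM, log2 ratio 0.16), GlnS (168 and 176 CPM, -0.07), IF-2mt, an initiation factor of mitochondrial translation (179 and 154 CPM, 0.21), NFRKB (176 and 149 CPM, 0.24) and Brd7, a bromodomain protein (129 and 126 CPM, 0.03). These 5 were named after their values were seen. How many symbol-bearing genes with more than 1 coding sequence reached the floor is not given here, so no share is known and no kind of function is read from them.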

How the data were processed

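Hemocyte RNA of 1 adult and 1 larval library was sequenced as read pairs of 150 bases. The authors deposited estimated counts and TPM per coding sequence, made with kallisto per the submitters' processing notes; the kallisto version, index and strand setting were not given in the sources used here, and overlapping or near-identical genes are therefore uncertain. The coding length and effective length also come from the deposited files.

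All 23471 coding sequences were matched by protein identifier to 9935 genes of a RefSeq table (assembly Amel_HAv3.1), used for names, transcript numbers and gene order, the last taken from the target identifiers. Library sizes were scaled by TMM (edgeR 4.0.16, R 4.3.3) on the 8798 genes with 10 or more counts in the libraries together (sums rounded), and CPM are relative to the scaled total. Intervals are exact at 95% (Poisson for CPM, Clopper-Pearson for ratios and shares). The selection rule was checked on simulated data, but only for its working. Nothing about the chosen genes, the edges of the band, the floor, the scaling or the variation between animals is read from that check. Alternatives were DESeq2 1.42.0 size factors, plain totals, TPM, other floors and widths, and other gene classes. Python 3.11.15, scipy 1.17.1 and pandas 2.3.3 were used.

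The members and lists were chosen with earlier results of these data known. Named genes are the first 10 by CPM and by TPM, those nearest a ratio of 1, those next to each limit, the 3 longest and shortest, those with counts that are not whole, and symbol-bearing genes meeting the same limits. Protein patterns and promoter motifs were not analysed here.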

Additional observations from a re-analysis of the deposited data

How the results depend on the processing

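The number of genes stayed within 1.5 times the reported 116 with plain totals (144), DESeq2 size factors (115), TPM (98), genes of any symbol (122) and centring on the 559 abundant genes (97), but 48, 112, 3, 116 and 0 of these were among the 116. It was 331 with a floor of 50 CPM, 30 with 200 CPM, 843 with no floor, 41 with a width of 0.1, 210 with a width of 0.5 and 335 with any number of coding sequences, as these limits are built to do. Each of these settings chose its genes anew, and the width of the rule keeps their median log2 ratio near 0 by construction. That median, reported as -0.07, was 0.042 with plain totals, -0.0023 with TPM and 0.013 after centring. It was -0.11 with a width of 0.5 and -0.0080 with any number of coding sequences, and stayed within -0.08 to -0.01 elsewhere. The 116 genes themselves had medians of 0.28 with plain totals, 0.47 with TPM and 0.48 after centring.

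The share of adult and larval counts, reported as 6.02% and 5.08%, became 7.01% and 6.66% with plain totals, 2.59% and 2.99% with TPM, 7.78% and 6.49% with 50 CPM, 4.68% and 4.00% with 200 CPM, and 9.21% and 7.60% with no floor. It was 1.97% and 1.58% with a width of 0.1, 10.4% and 8.87% with 0.5, 7.16% and 6.09% with any symbol, 12.2% and 9.88% with any number of coding sequences, 2.67% and 3.13% after centring, and 2.67% and 2.14% without the 2 most abundant genes. With DESeq2 factors the larval share was 5.07%. The median coding length, 1450.5 bases, was 1201.5 with TPM and 1200 after centring. The share of genes with counts printed as whole, 96.6% with the 2 most abundant included, was 90.0% with 200 CPM. Centring and leaving out 2 genes are choices made after seeing the data. The cause of these changes was not tested, beyond those that a limit sets by construction.

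Of 116 log2 ratios of 29 named members under 4 other scalings, 89 left their counting interval, all 29 with plain totals, with TPM and with centring, and 2 with DESeq2 factors. No paired analysis was possible because each stage has 1 library. Alternatives for transmembrane segments, hydrophobic N-termini and promoter CpG were not run. Leaving out a replicate was not possible with 1 library per stage.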
